A study of Mus musculus with 18 samples.

Results

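Ribosome footprints, the stretches of mRNA that translating ribosomes protect from nuclease, were compared between mouse medulloblastoma cells given 50 nM Rapalink-1 for 3 h and cells given the solvent DMSO for 3 h. The comparison uses the 3 Rapalink-1 and the 3 DMSO footprint libraries, 6 of the 18 libraries of the study, chosen by their labels. After transcript rows were merged to genes, 11281 genes had enough reads to be tested. The 3 footprint libraries of cells given 5 nM rapamycin for 3 h entered the same fit and are used for side-by-side values. All cells were of the GTML line, grown in neurobasal medium with B27, EGF and bFGF, and overexpressed human MYCN. The line came from a mouse model in which a GLT1-TRE construct targets the MYCN transgene to neural progenitors of the hindbrain, so every group, controls included, carries it. A single line was used, and nothing in the labels says that the replicates were separate cultures, so p-values measure the spread between these samples, which may be technical.

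The kinase mTOR, as part of the complex mTORC1, couples growth signals and amino acids to protein synthesis. It phosphorylates the S6 kinases and the 4E-BP proteins, and unphosphorylated 4E-BP binds the cap-binding protein eIF4E and keeps it from forming the eIF4F initiation complex. The mRNAs most sensitive to mTORC1 begin with a terminal oligopyrimidine (TOP) tract, a C at the cap followed by further pyrimidines, and encode ribosomal proteins and elongation factors. A second complex, mTORC2, activates AKT, which keeps FoxO transcription factors out of the nucleus. Rapamycin is an allosteric inhibitor of mTORC1, and Rapalink-1 links rapamycin to an inhibitor of the ATP site.

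The sequences at annotated transcript starts are shown first because TOP mRNAs are known for what they begin with. Each is the first 30 bases of a RefSeq transcript start in build GRCm38.p6, 5′ to 3′ on the transcript strand. Capitals mark the first run of C followed by at least 4 C or T. The genes were picked as examples and are not the list of those that fell furthest. Such a run at the annotated first base was found in 13 of 55 genes (23.6%) with a log2 change below -2. Rps27 lies at chr3:90213619-90213648 on the minus strand, Rps18 at chr17:33955636-33955665 on the minus strand, Rps6 at chr4:86857338-86857367 on the minus strand, Rpl28 at chr7:4792965-4792994 on the plus strand and Eif3f at chr7:108934415-108934444 on the plus strand. Eef2 (chr10:81176631-81176660, plus strand), Rpl27a (chr7:109519195-109519224, plus strand) and Odc1 (chr12:17544873-17544902, plus strand) have a run that does not open at the annotated base. Hbp1 (chr12:31950216-31950245, minus strand), a gene that rose, has no such run in its first 30 bases.
Rps27: CCTTTCCggcggtgacgacctccctacgag
Rps18: CTCTCTTCCacaggaggcctacacgccgcc
Rps6: CTCTTTTTCgtgacgcctcccaggcgctcg
Rpl28: CTCTTTCCgtctccggccgccatagggaga
Eif3f: CTCTCTTTCTCggcaagatggcttctccgg
Eef2: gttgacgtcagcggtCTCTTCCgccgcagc
Rpl27a: tCCCTTTTCCCTTTCTgccaccgccatggt
Odc1: gCCTCCCggccggaaccgatcgcggctggt
Hbp1: ggggagggggaagacgaagcttgaaagact

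The libraries held between 7692625 and 14150068 footprint reads. Counts were scaled with TMM factors, which were 0.919 to 0.937 in DMSO and 1.111 to 1.127 in Rapalink-1 libraries, and levels are given as CPM, read counts divided by the scaled library size. No spike-in is recorded, so all changes are relative to the other genes of a library, and in bulk cells fewer cells of a kind and less RNA per cell cannot be told apart. A footprint change also combines a change in mRNA with a change in its translation. By edgeR's quasi-likelihood test with Benjamini-Hochberg adjustment, 2896 genes (25.7%) were higher and 3161 (28.0%) lower with Rapalink-1, 53.7% in either direction, a gene being called at an adjusted p under 0.05. At least 1 log2 unit was gained by 3.68% of genes and lost by 3.96%, and in 58.7% the 3 libraries of one group did not overlap those of the other. The median of all genes tested was 0.01 on the log2 scale. Scaling by library totals in place of TMM moved that median by 0.272 and gave 5400 higher and 1587 lower genes, so list counts are given under both scalings where they differ. The gene lists were written with earlier results of these data known, so their counts are descriptions and not independent tests. Every list count under TMM stands against the shares of all genes, 25.7% higher and 28.0% lower. These shares do not apply to list counts under library totals, also where both are printed in one sentence. Counts under library totals stand against 5400 higher and 1587 lower of all 11281 genes, so many rises in a list are common under that scaling.

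Some markers of the labelled cell type were present. Of 10 neural progenitor markers 8 were tested, and Vim, an intermediate filament gene, had 328 ± 3.24 CPM (SD, n = 3) in DMSO, Msi1 76.1 ± 5.22 and Nes 50.9 ± 3.97. Fabp7 and Hes1 were low in DMSO, at 7.7 and 4.99 CPM, and Sox2 and Hes5 were not tested. Of 10 granule neuron lineage markers 5 were tested, with Neurod1 at 240 ± 15 CPM and Zic2 at 94.1 ± 3.83 CPM. Atoh1, Barhl1, Cntn2, Rbfox3 and Gabra6 were not tested. Few markers of other cells were tested, namely 1 of 6 for astrocytes, 1 of 10 for oligodendrocytes, 1 of 11 for microglia and macrophages, 2 of 5 for blood, 0 of 7 for endothelium and 1 of 9 for fibroblasts and pericytes. The fibroblast and pericyte gene was Acta2, smooth muscle actin, with 299 ± 18.9 CPM in DMSO and 248 ± 8.30 with Rapalink-1, a log2 change of -0.27 that was 0.00 under library totals. The microglial and macrophage gene was Itgam, an integrin subunit, with 71.5 ± 14.7 CPM in DMSO and 22.2 ± 0.737 with Rapalink-1, a fall of 1.71 on the log2 scale (adjusted p = 3.2e-07). The other members of both lists were not tested, and the part of such cells in the results was not tested.

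**Figure D1:**
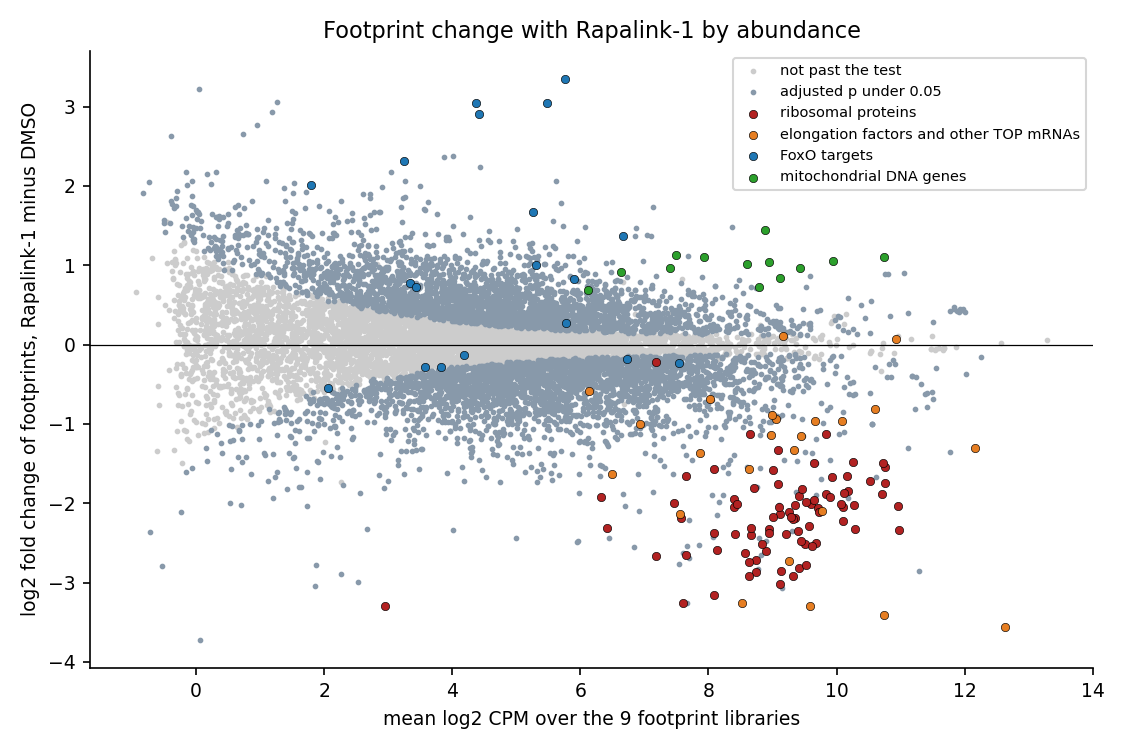
Log2 fold change of footprints, Rapalink-1 minus DMSO, against mean log2 CPM over the 9 footprint libraries, 1 point per gene tested; dark grey points passed the test and coloured points belong to 4 sets of genes. Ribosomal protein genes and most elongation factor and other TOP genes lie below 0 at high abundance, and the FoxO targets reach the highest values.

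The genes that fell furthest were 2 elongation factors, and cytosolic ribosomal proteins had the lowest medians of the lists. Eef1a1, which delivers aminoacyl-tRNA to the ribosome, had 16633, 16578 and 16459 CPM in the DMSO libraries and 1401, 1356 and 1451 CPM in the Rapalink-1 libraries. The groups were far apart, and the DMSO mean was 11.8 times the Rapalink-1 mean. On the log2 scale Eef1a1 fell by 3.56 (SE 0.046, adjusted p = 1.2e-39), the lowest value among genes named by size. Eef2, the translocase of elongation, had 4024, 4352 and 4162 CPM in DMSO against 392, 396 and 394, and fell by 3.41 (SE 0.050, adjusted p = 9.2e-38). The exchange factor subunits of eEF1 did not move alike: Eef1b2 fell by 2.72, Eef1g by 2.10 and Eef1d by 0.94. Eif5a, a factor that helps the ribosome over difficult peptide bonds, and Gspt1, a release factor, did not pass the test, with log2 changes of 0.07 and 0.11, and library totals placed both among the higher genes. Of 9 elongation and release factors tested, 7 fell and none rose, with a median of -0.94 (7 lower and 2 higher under library totals).

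All 48 large subunit and all 34 small subunit ribosomal protein genes tested fell, where 28.0% of all genes did. The medians were -2.05 and -2.24 against 0.01 over all genes, 48 and 33 of them fell by at least 1 log2 unit (3.96% of all genes did), and in every one the groups did not overlap, as in 58.7% of all genes. Rps18 had 1233, 1197 and 1319 CPM in DMSO and 157, 158 and 147 CPM with Rapalink-1, and fell by 3.02 (SE 0.057, adjusted p = 1.8e-34). Rpl27a had 649, 603 and 645 CPM against 73.6, 69.3 and 69.2, and fell by 3.16 (SE 0.059, adjusted p = 1.3e-34). Rps6, the classic substrate of the S6 kinases, fell by 2.11, close to the middle of its list. Rps27 fell by 3.26, but its counts stayed within 10% of those of Rps27rt, so reads of this pair cannot be assigned to either gene. The weakest member was Rps27l, a paralogue of Rps27 known as a p53 target, with 145, 134 and 150 CPM in DMSO and 125, 122 and 123 CPM with Rapalink-1. Its fall of 0.22 (SE 0.059, adjusted p = 0.0023) turned to 0.06 under library totals, which left 33 of the 34 small subunit genes lower. Together the large subunit genes took 5.31 to 5.67% of footprint reads in DMSO and 1.66 to 1.67% with Rapalink-1, and the small subunit genes 3.84 to 3.99% and 1.05 to 1.06%.

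All 15 further genes of the TOP list fell, with a median of -1.30. The growth-related protein gene Tpt1 had 1944, 1963 and 1950 CPM against 203, 200 and 196. Its fall of 3.29 (SE 0.053, adjusted p = 1.7e-36) was close to that of Pabpc1, the cytoplasmic poly(A)-binding protein, at 3.25. Npm1, a nucleolar chaperone, fell by 1.30, Eif4b, a cofactor of the eIF4A helicase, by 1.33, and Vim by 1.36. Some members of this list also stand in the lists of initiation factors.

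Subunits of eIF3, the scaffold that brings the small subunit to the mRNA, formed a gradient. All 13 fell, 11 of them also under library totals, and the median was -0.98. Eif3f had 331, 339 and 363 CPM in DMSO and 75.8, 78.2 and 81.5 CPM with Rapalink-1, and fell by 2.13 (SE 0.058, adjusted p = 3.2e-29). Eif3h fell by 1.57 and Eif3e by 1.15, all 3 without overlap between groups. At the other end Eif3a, the largest core subunit, had 1128, 1126 and 1007 CPM against 956, 953 and 938. Its fall of 0.20 (SE 0.051, adjusted p = 0.0012) became 0.08 under library totals, a turned direction.

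Among eIF4F and its repressors 10 of 17 fell and 6 rose (6 and 7 under library totals). The translational repressors encoded by Eif4ebp1 and Eif4ebp2 fell: Eif4ebp1 had 62.2, 64.5 and 69.2 CPM in DMSO against 23.9, 21.9 and 22.0, and Eif4ebp2 had 23.1, 21.0 and 21.5 CPM against 6.54, 7.28 and 7.70. Neither gene's groups overlapped. The log2 changes were -1.52 (SE 0.083, adjusted p = 1.0e-18) for Eif4ebp1 and -1.62 (SE 0.13, adjusted p = 2.0e-13) for Eif4ebp2. Their target Eif4e fell by 0.35, and by 0.07 without passing the test under library totals. Pdcd4, an inhibitor of the eIF4A helicase, rose from 70.0, 73.0 and 62.1 to 184, 168 and 177 CPM, a log2 change of 1.37 (SE 0.067, adjusted p = 1.9e-20). The scaffold gene Eif4g1 differed by only 0.14 (adjusted p = 0.025), and the call was lost without DMSO replicate 3, Rapalink-1 replicate 1 or Rapalink-1 replicate 3, with log2 values of 0.08 to 0.14. Of 17 factors of the eIF1, eIF2, eIF5 and eIF6 groups 10 fell, and Eif1a and Eif5 rose by 0.22 and 0.33. Without any one of 4 libraries (DMSO replicate 2 or 3, Rapalink-1 replicate 1 or 2) the Eif1a value was 0.16 to 0.20 and not called. Under library totals 7 of these 17 were higher and 8 lower.

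The machinery that makes ribosomes and charges tRNA moved less than the ribosomal proteins. Among 40 genes of nucleolar biogenesis the lower ones numbered 23 and the higher ones 5. Their median of -0.18 was 0.09 under library totals, with 7 lower and 19 higher. Ddx21, a nucleolar helicase, fell by 0.98 and Rrs1 by 0.93. The 5 that rose were Nop56, Dkc1, Gnl3, Ddx10 and Utp20, none by more than 0.22. Of 20 cytosolic aminoacyl-tRNA synthetases 13 fell and Lars alone rose (median -0.22, or 0.05 under library totals, with 8 higher and 6 lower). Qars, the glutamine enzyme, fell by 1.13 and Kars, the lysine enzyme, by 0.68. RNA polymerase I and III genes had 6 higher and 6 lower of 24, close to the 25.7% and 28.0% of all genes. Under library totals 15 were higher and 3 lower. Maf1, the repressor of polymerase III, rose by 1.21, from 29.7, 32.4 and 32.3 to 71.4, 71.0 and 75.6 CPM, while the shared subunits Polr1d and Polr1c fell by 0.97 and 0.92.

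**Figure D2:**
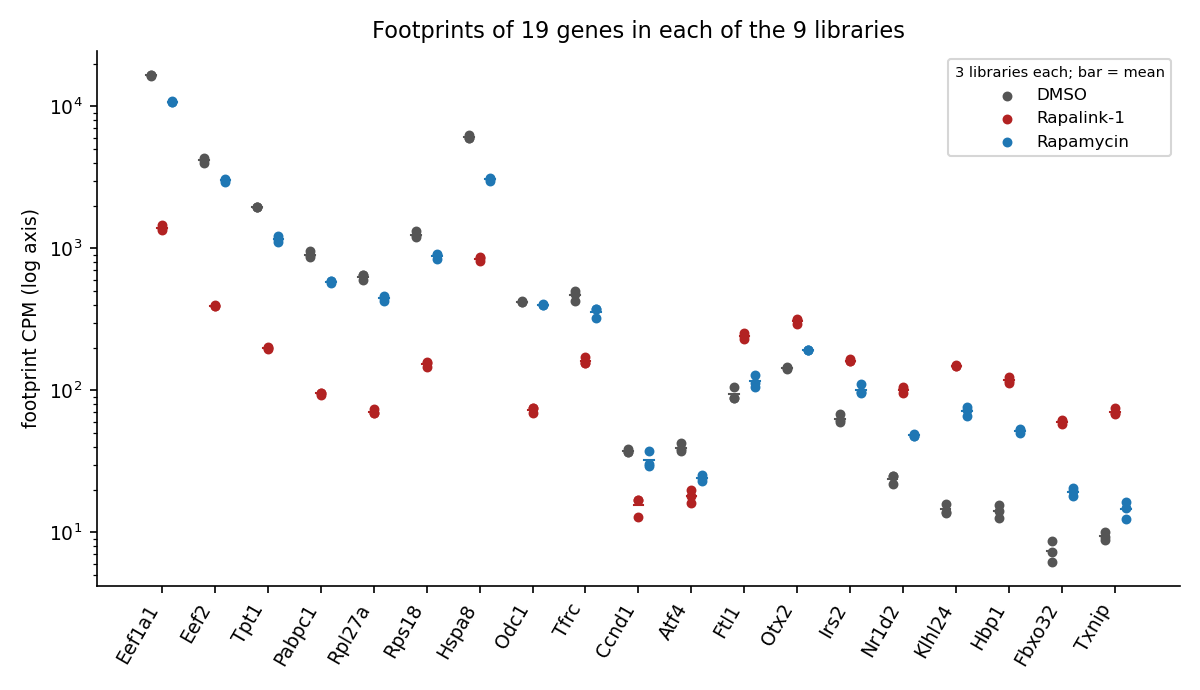
Footprint CPM on a log axis for selected genes, with 1 point per library and a bar at the mean of each treatment. For Eef1a1 the 3 Rapalink-1 libraries lie between 1356 and 1451 CPM and the 3 DMSO libraries between 16459 and 16633, and in each gene shown the DMSO and Rapalink-1 points do not overlap.

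Genes of the mTOR complexes themselves moved by less than 1 log2 unit. Of 8 subunits 4 rose and 3 fell, beside 25.7% and 28.0% of all genes. Under library totals 5 rose and none fell. Mtor had 53.4, 63.6 and 52.2 CPM in DMSO and 46.2, 43.3 and 50.1 CPM with Rapalink-1. Its change of -0.27 (SE 0.082, adjusted p = 0.0059) was 0.01 under library totals and was not called without DMSO replicate 2, at -0.19. Rptor, the substrate-binding subunit of mTORC1, rose by 0.45, and Deptor, an inhibitory subunit, by 0.72. Rictor of mTORC2 rose by 0.27, but not past the test without Rapalink-1 replicate 3, at 0.21. The list of S6 kinases, eEF2 kinase and LARP proteins had 4 of 10 higher and 2 lower, beside 25.7% and 28.0% of all genes. Under library totals 6 were higher and 1 lower. Eef2k, which inhibits eEF2, rose by 0.51, whereas Larp1, which binds TOP mRNAs, changed by -0.27 (0.00 under library totals) and Larp4 fell by 0.72.

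Of 28 nutrient-sensing genes 10 were higher and 6 lower (13 and 5 under library totals), beside 25.7% and 28.0% of all genes. Flcn and Fnip1, which together act on the Rag GTPases, rose by 1.24 and 1.14. Flcn had 32.6, 29.0 and 32.4 CPM in DMSO and 80.1, 74.5 and 67.7 CPM with Rapalink-1, and the groups did not overlap. Rhebl1, a relative of the mTORC1 activator Rheb, rose by 2.06, and Bmt2 (also called Samtor), a sensor of S-adenosylmethionine, fell by 1.64. Sesn2, a leucine sensor, fell by 1.12.

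Upstream receptors and adaptors of the insulin pathway were higher. Of 18 genes 9 rose, 25.7% being the share over all genes, and 2 fell (13 and 1 under library totals), among them the regulatory subunit gene Pik3r3 by 0.65. Irs2, an adaptor of the insulin receptor, had 59.6, 67.7 and 61.9 CPM in DMSO against 166, 160 and 160. It rose by 1.37 (SE 0.067, adjusted p = 3.0e-20), its relative Irs1 by 1.17, the receptor gene Insr by 0.82 and the catalytic subunit gene Pik3ca by 0.86. None of these 4 had overlapping groups. Irs2 and Insr are also counted in the FoxO list.

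The largest rises among genes named by size, Klhl24, Hbp1, Fbxo32 and Txnip, were on the list of FoxO targets. This list was written with earlier results of these data known, so its counts describe it and are not an independent test. It shares Irs2, Insr, Rictor, Sesn1 and Sesn3 with the lists above. Of 19 FoxO targets tested 13 rose, with a median of 0.82, and 2 fell, the antioxidant enzymes Sod2 and Cat, by 0.23 and 0.18. Under library totals 13 rose and none fell. By at least 1 log2 unit 8 of the 19 rose, where 3.68% of all genes did. Gadd45a, Sesn1, Sesn3 and Trib1 were not called, at -0.55, -0.14, -0.28 and -0.28. Klhl24 (chr16:20097553-20129226, GRCm38), a ubiquitin ligase adaptor, had 15.8, 13.7 and 14 CPM in DMSO and 148, 148 and 152 CPM with Rapalink-1, and rose by 3.35 (SE 0.082, adjusted p = 8.5e-31). Hbp1, a transcriptional repressor of the cell cycle, had 15.6, 12.6 and 14.1 CPM against 124, 113 and 117. Txnip, an inhibitor of glucose uptake, had 9.21, 8.83 and 10.1 CPM against 68.7, 75.0 and 68.0. The rises of Hbp1 and Txnip were 3.04 (SE 0.086, adjusted p = 9.5e-29) and 2.91 (SE 0.11, adjusted p = 1.8e-24), and neither gene's groups overlapped. Fbxo32, a ubiquitin ligase of muscle atrophy, rose by 3.04, Ccng2, an atypical cyclin, by 2.31, Bbc3, a BH3-only death gene, by 2.01 and Foxo3 itself by 1.67. Bbc3 was low in every library, at 1.15 to 2.11 CPM in DMSO and 5.73 to 8.35 CPM with Rapalink-1. The other genes among the 15 largest rises were not on the FoxO list. They were Tcp11l2 at 2.38, Fbxl20 at 2.24, Nr1d2 at 2.07, Ibtk at 1.78 and Dync1h1, the heavy chain of cytoplasmic dynein, at 1.73. Klf9, a Krüppel-like transcription factor, rose by 1.60, Ubald2 by 1.56, Calcoco1 and Zswim4 by 1.5 each and the linker histone gene H1f0 by 1.49.

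Short windows around a forkhead core motif are shown because these 4 genes rose and carry it near an annotated start. They were picked, with their values known, from the 21 genes above 1 log2 unit that hold it. The motif searched was GTAAACA or its reverse complement TGTTTAC, in capitals, within the 300 bases that run from 250 before to 50 after each RefSeq start in build GRCm38.p6. Hbp1 holds it at chr12:31950376-31950405 (minus strand), 149 bases before the start, Txnip at chr3:96557825-96557854 (plus strand), 121 bases before, Klf9 at chr19:23141115-23141144 (plus strand), 100 bases before, and Bbc3 at chr7:16310083-16310112 (plus strand), 167 bases before.
Hbp1: caccttctccaGTAAACAcaagagaaaagt
Txnip: ttggaggcctgGTAAACAagggccaagtag
Klf9: agggggagaaaGTAAACAgagttgaatcac
Bbc3: tctggcgggttTGTTTACaaacaatggggt

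A start entry was matched by symbol for 7640 of the 9763 tested genes with a symbol. A C followed by at least 4 C or T at the annotated start was found in 13 of 55 genes (23.6%) with a log2 change below -2, in 6.19% of those from -2 to -1 and in 2.97% of all genes tested with an entry. Outside the ribosomal protein genes it was 3 of the 13 below -2. Allowing the run to begin within 5 bases of the start gave 54.5% below -2, 27.0% from -2 to -1 and 23.3% of all genes with an entry, a wider search that finds more runs everywhere. Of the 6 elongation factors with an entry, 0 had the run at the annotated start and 16.7% within 5 bases. Annotated starts need not be the exact cap site. The forkhead motif was in 21 of 205 genes (10.2%) with a change above 1, in 2.93% of all genes with an entry and in 0 of the 55 below -2. In the FoxO list, written with earlier results known, it was in 4 of 14 genes, and Klf9 is not on that list. The E-box CACGTG, the same on both strands and a binding site of MYC proteins, was in 12.7% of genes below -2, 12.2% above 1 and 12.6% of all genes with an entry. Over all 32851 entries of the table the shares were 2.51% for the run at the start, 3.65% for the forkhead motif and 7.15% for the E-box. These matches are descriptions of letters in a window, not of sites in use.

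**Figure D3:**
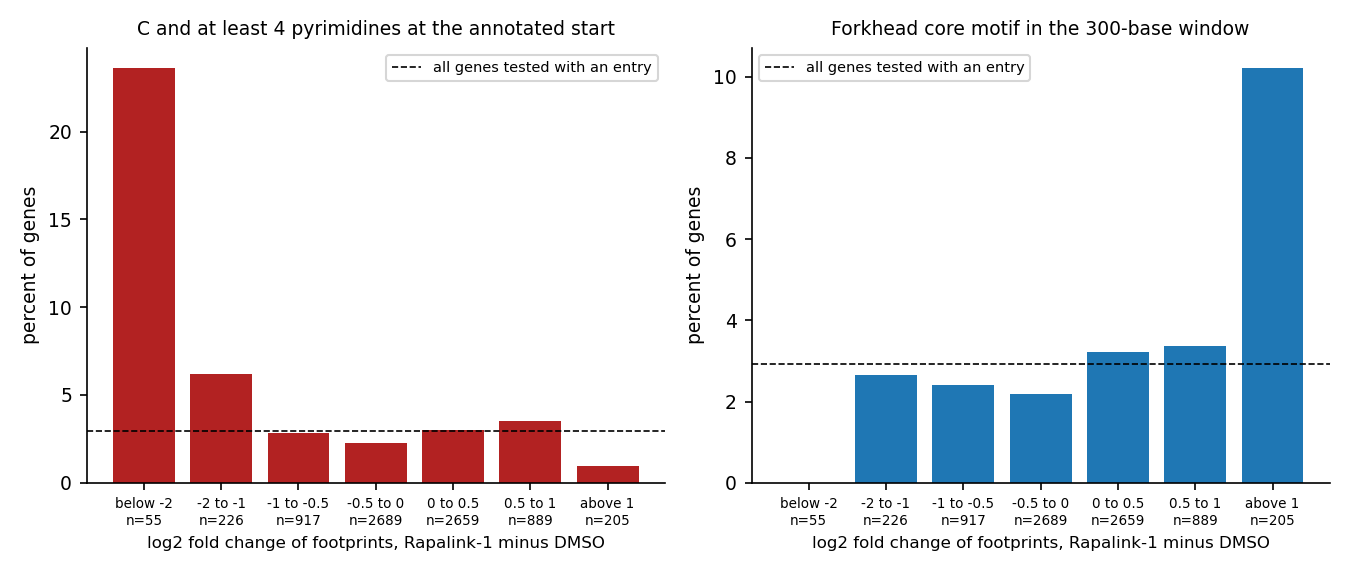
Percent of genes, by bin of log2 fold change with the number of genes under each bar, that have a C and at least 4 pyrimidines at the annotated start (left) or the forkhead core motif in the 300-base window (right); the dashed line is the share over all genes tested with an entry. The left share is 23.6% in the lowest bin against 2.97% of all, and the right share is 10.2% in the highest bin against 2.93% of all.

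In the MYC network 4 of 11 genes rose and 2 fell (9 and 1 under library totals), beside 25.7% and 28.0% of all genes. Mycn, the mouse gene in cells that also carry the human transgene, had 706, 772 and 747 CPM in DMSO and 886, 904 and 903 CPM with Rapalink-1. The groups did not overlap, and the rise was 0.28 (SE 0.050, adjusted p = 1.2e-05). How many reads of the human transgene were counted in this mouse row was not tested. Mycl rose by 1.24, Mxi1, an antagonist of MYC, by 0.80 and Mga by 0.69, while Mlx, a MAX-like partner of other bHLH factors, fell by 0.60.

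Of 29 immediate early and ERK feedback genes listed 15 were tested. Of these 11 were higher and none lower, beside 25.7% and 28.0% of all genes. Their median was 0.61, and under library totals 13 were higher and 0 lower. Spred2, an inhibitor of RAS signalling, rose by 1.15, the ERK phosphatase gene Dusp6 by 1.02, Etv1 by 1.25 and Junb by 0.91. Dusp6 had 18.8, 24.4 and 17.3 CPM in DMSO and 41.0, 41.8 and 38.2 CPM with Rapalink-1. Circadian clock genes were divided, with 6 of 15 higher and 4 lower (7 and 3 under library totals), beside 25.7% and 28.0% of all genes. The nuclear receptor gene Nr1d2 rose by 2.07 and Rorb by 1.39, while Ciart, a repressor of the clock, fell by 1.87.

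Sterol synthesis was lower. In the mevalonate pathway 9 of 10 genes fell (8, with 1 higher, under library totals), beside 28.0% of all genes. From squalene to cholesterol 9 of 11 fell (7 under library totals). The medians were -0.70 and -0.51. Msmo1, a sterol oxidase, had 324, 295 and 264 CPM in DMSO and 94.3, 97.6 and 92.4 CPM with Rapalink-1, without overlap. It fell by 1.64 (SE 0.064, adjusted p = 9.3e-24), and Mvd, a decarboxylase of the mevalonate pathway, by 1.14. Abca1, a cholesterol exporter, rose by 1.85, from 4.15, 6.45 and 4.93 to 16.9, 17.1 and 20.6 CPM. The regulator Srebf2 fell by 0.42, and Srebf1 differed by 0.04 without passing the test, or by 0.31 and passing it under library totals. Fatty acid genes fell in 11 of 18, at a median of -0.20 that was 0.07 under library totals, where 6 fell and 2 rose. Fasn, fatty acid synthase, fell by 0.93 and the desaturase gene Fads1 by 0.83.

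ATF4 targets, serine and one-carbon genes and amino acid transporters were counted as 3 lists. Of 18 ATF4 targets 12 fell and none rose, where 28.0% and 25.7% of all genes did, and under library totals 9 fell and 5 rose. Atf4, the transcription factor itself, had 37.4, 38.4 and 42.5 CPM in DMSO and 18, 19.8 and 16 CPM with Rapalink-1. It fell by 1.14 (SE 0.10, adjusted p = 3.3e-12). Mthfd2, the mitochondrial folate enzyme, fell by 1.53 and Trib3, a pseudokinase, by 2.03. In the serine and one-carbon list 7 of 15 fell and 1 rose, or 7 and 7 under library totals. Ahcy, which hydrolyses S-adenosylhomocysteine, had 543, 573 and 566 CPM against 194, 191 and 192 and fell by 1.54, Phgdh fell by 0.87, and Shmt1, the cytosolic serine hydroxymethyltransferase, rose by 0.64. Of 17 amino acid transporter genes 6 rose and 5 fell (10 and 2 under library totals), beside 25.7% and 28.0% of all genes. Slc7a5, the large neutral amino acid carrier, fell by 0.88 and Slc7a11, the cystine carrier, by 0.85, whereas Slc38a1 and Slc38a2, glutamine carriers, rose by 0.53 and 0.37.

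Polyamine synthesis was led by one strong fall. Odc1 (chr12:17544808-17551502, GRCm38), ornithine decarboxylase and a known MYC target, had 426, 419 and 416 CPM in DMSO and 74.6, 69.2 and 75.5 CPM with Rapalink-1. No library of one group came near the other, and the gene fell by 2.52 (SE 0.057, adjusted p = 5.5e-32). Amd1, the next committed enzyme, fell by 1.23, with counts close to those of its copy Amd2. The spermidine synthase gene Srm fell by 0.75, and Sat1, which starts polyamine breakdown, rose by 0.77. In all 6 of 14 genes of the list fell and 1 rose, and under library totals 5 fell and 5 rose. Purine and pyrimidine genes fell in 8 of 15 and 9 of 17, including Impdh2 by 0.82, Nme2 by 1.46, Ctps by 0.77 and Rrm2 by 0.70. Under library totals these counts were 4 and 5 lower, with 7 and 8 higher.

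Under TMM most tested genes of the energy metabolism lists in this paragraph were lower, by smaller amounts. Of 22 glycolysis and pentose phosphate genes 18 fell and 1 rose, or 11 and 2 under library totals. Pfkfb3, which makes the activator of phosphofructokinase, fell by 1.60, from 65.7, 63.8 and 59.3 to 19.1, 21.3 and 22.2 CPM, and Pgls of the pentose phosphate pathway fell by 1.53. Nuclear genes of complex I fell in 29 of 37 and those of complexes III to V in 32 of 35, against 28.0% of all genes, with medians of -0.41 and -0.46. Under library totals the lower genes numbered 17 and 20, and the higher genes 8 and 5. Atp5g2, a proton channel subunit of ATP synthase, fell by 1.89, and Ndufs1, the largest complex I subunit, rose by 0.38. Mitochondrial ribosomal protein genes fell in 63 of 76 (36 under library totals, with 9 higher), at a median of -0.42, which is far above the medians of the cytosolic ribosomal proteins. Mrps24 fell by 1.37. In the TCA cycle 13 of 23 fell and 2 rose, with Cs, citrate synthase, down by 1.03. Under library totals 8 fell and 10 rose.

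Genes of the mitochondrial genome behaved in another way. With DMSO their footprints made up 0.321, 0.548 and 0.814% of a library, and with Rapalink-1 1.01, 1.36 and 1.81%. The groups did not overlap in this summed share, but the spread within each was wide. The rapamycin libraries, whose columns carry another tag, had 0.373 to 0.405%. Taken gene by gene, the CPM of the DMSO and Rapalink-1 groups did not overlap in 6 of 13, beside 58.7% of all genes. The median change was 1.02, and 3 of 13, mt-Nd1, mt-Co2 and mt-Atp8, passed the test, with none lower. mt-Co2, a subunit of cytochrome c oxidase, had 213, 335 and 576 CPM in DMSO and 712, 986 and 1353 CPM with Rapalink-1, a log2 change of 1.44 (SE 0.40, adjusted p = 0.022). It was not called without DMSO replicate 2, Rapalink-1 replicate 2 or Rapalink-1 replicate 3, with values of 1.18 to 1.46. The number of called members was 12 without DMSO replicate 3 and 1 without DMSO replicate 2, Rapalink-1 replicate 2 or Rapalink-1 replicate 3. DESeq2 called 11 and library totals 13, while a fit on only the 6 libraries called 1. The part of library preparation in these values was not tested.

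**Figure D4:**
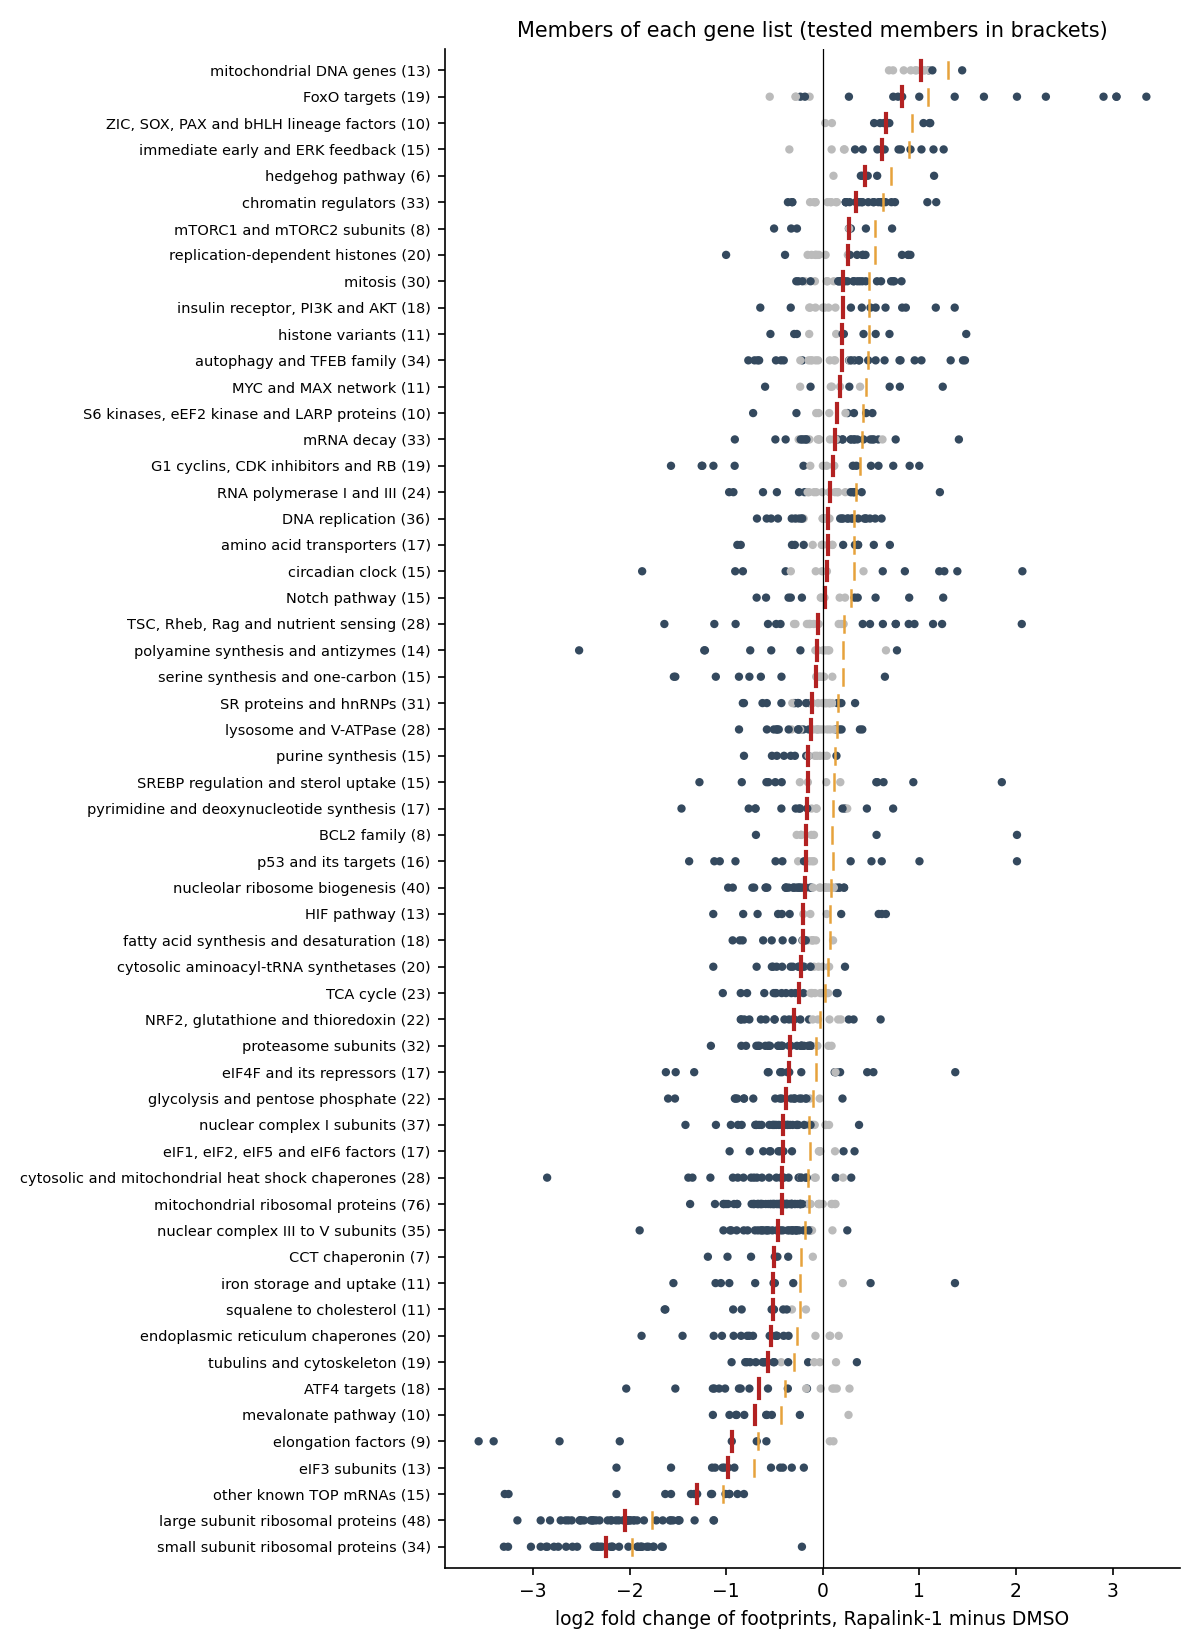
Log2 fold change of footprints, Rapalink-1 minus DMSO, for each tested member of each gene list; dark points passed the test, grey points did not, the thick bar is the median and the thin bar the median under library totals. Ribosomal proteins lie lowest, with medians of -2.05 and -2.24, FoxO targets highest but for mitochondrial DNA genes, and the nucleolar list is among those whose median changes sign under library totals.

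Of 28 heat shock chaperones 22 fell, beside 28.0% of all genes, and 2 rose (13 and 5 under library totals). Hspa8, the constitutive HSP70, had 6278, 6013 and 6000 CPM in DMSO and 863, 821 and 849 CPM with Rapalink-1. It fell by 2.85 (SE 0.048, adjusted p = 6.8e-36), the only chaperone among the 15 largest falls, and Hsp90ab1 fell by 1.35. Of 7 CCT chaperonin subunits 6 fell (5, with 1 higher, under library totals), and Cct3 did not pass the test at -0.10, a value that was 0.17 under library totals. Endoplasmic reticulum chaperones fell in 16 of 20 (15 under library totals, with 4 higher). Creld2 fell by 1.88, from 100, 114 and 98.6 to 27.5, 27.8 and 29.7 CPM, and P4hb, protein disulfide isomerase, by 1.45. Proteasome subunits fell in 28 of 32, beside 28.0% of all genes, at a median of -0.34 (15 of 32, with 9 higher, under library totals). Psmd4, a ubiquitin receptor, fell by 1.16.

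Of 34 autophagy genes 15 rose and 8 fell (20 and 3 under library totals), beside 25.7% and 28.0% of all genes. Nbr1, a cargo receptor, had 73.2, 78.1 and 67.3 CPM against 208, 197 and 200 and rose by 1.47 (SE 0.064, adjusted p = 3.7e-22). Atg13 of the ULK1 complex rose by 1.32, Rb1cc1 of the same complex by 0.81 and Pik3c3, the phosphatidylinositol kinase, by 0.79. Lysosomal genes were lower in 12 of 28 and higher in 5, beside 28.0% and 25.7% of all genes, with Lamp1 down by 0.87. Under library totals 4 were lower and 13 higher. In the NRF2, glutathione and thioredoxin list 14 of 22 fell and Gclc, Gclm and Txnrd1 rose, the first by 0.60. Under library totals 9 fell and 8 rose. Cytoskeletal genes fell in 14 of 19 (12, with 5 higher, under library totals), among them Actg1 by 0.78 and Tubb2b by 0.94, while Stmn1, a tubulin-binding protein, rose by 0.35.

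Iron uptake and storage genes moved in opposite directions. Tfrc (chr16:32608896-32632794, GRCm38), the transferrin receptor, had 503, 478 and 426 CPM in DMSO and 172, 155 and 155 CPM with Rapalink-1. It fell by 1.55 (SE 0.065, adjusted p = 1.2e-19), and the iron importer Slc11a2 by 1.11. The ferritin light chain gene Ftl1 (chr7:45457944-45459886, GRCm38) had 87.9, 106 and 88.5 CPM against 242, 253 and 230 and rose by 1.37 (SE 0.071, adjusted p = 2.1e-17). The heavy chain gene Fth1 rose by 0.50. The groups did not overlap in any of these genes. Ireb2, an iron-responsive element binding protein that acts on both kinds of mRNA, fell by 0.70, and of 11 genes 8 fell and 2 rose (7 and 3 under library totals).

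Cell cycle genes moved in both directions. Among G1 genes 6 of 19 fell and 7 rose (5 and 12 under library totals), beside 28.0% and 25.7% of all genes. E2f4, a repressive E2F factor, had 59.6, 68.7 and 69.2 CPM against 23.8, 22.9 and 19.2 and fell by 1.57 (SE 0.093, adjusted p = 1.1e-17). The cyclin genes Ccnd1, Ccne2, Ccnd3 and Ccne1 fell by 1.25, 1.25, 1.13 and 0.91. Cdkn1b, the CDK inhibitor p27, had 29.3, 24.7 and 28.7 CPM against 50.6, 57.2 and 59.4 and rose by 1.00 (SE 0.089, adjusted p = 2.5e-12). Of 30 mitosis genes 20 rose and 4 fell, where 25.7% of all genes rose (25 and 0 under library totals). The spindle checkpoint kinase gene Bub1b rose by 0.74, Kif11 by 0.73 and the proliferation marker Mki67 by 0.71. DNA replication genes rose in 14 of 36 and fell in 9 (25 and 4 under library totals), beside 25.7% and 28.0% of all genes. Mcm10 rose by 0.61 and Rfc2 fell by 0.68. Of the p53 list 5 of 16 rose and 7 fell (5 and 5 under library totals), beside 25.7% and 28.0% of all genes. Tigar, a regulator of glycolysis, fell by 1.38. In the BCL2 family Mcl1, a survival factor, fell by 0.69, from 112, 118 and 116 to 70.4, 72.3 and 71.4 CPM, while Bcl2l1, another survival factor, rose by 0.56 together with Bbc3.

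Chromatin and RNA genes completed the nuclear lists. Chromatin regulators rose in 21 of 33, with a median of 0.34, and fell in 3, namely Eed, Hdac1 and Dnmt3a (30 and 0 under library totals). Kdm6a, a histone H3 demethylase, rose by 1.17 and the acetyltransferase gene Crebbp by 0.71. Hdac1 counts stayed close to those of a copy, Gm10093. Among histone variants 6 of 11 rose and 3 fell (7 and 1 under library totals), with the linker histone gene H1f0 at 217, 196 and 256 CPM in DMSO and 604, 634 and 637 CPM with Rapalink-1. Hist1h1b, another linker histone gene, rose by 0.88. Many replication-dependent histone genes share reads with copies, so their 9 rises and 2 falls among 20 (13 and 1 under library totals) are uncertain one by one. SR proteins and hnRNPs fell in 12 of 31 and rose in 4, beside 28.0% and 25.7% of all genes. Under library totals 4 fell and 19 rose. Pcbp2 was down by 0.83 and Hnrnpa1 by 0.82. In mRNA decay 15 of 33 rose and 8 fell (22 and 1 under library totals), among them the antiproliferative gene Btg1, up by 1.41, and Upf3a of nonsense-mediated decay, down by 0.91. Hypoxia genes fell in 6 of 13 and rose in 4, beside 28.0% and 25.7% of all genes, and Hif1a rose by 0.19. Under library totals 3 fell and 5 rose.

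The list of ZIC, SOX, PAX and bHLH lineage factors also held the homeobox factors Otx2 and Meis1. Of its 26 genes 10 were tested. Among these 8 rose, beside 25.7% of all genes, and none fell, with a median of 0.65 (10 and 0 under library totals). Otx2 (chr14:48656781-48667644, GRCm38) had 141, 146 and 143 CPM in DMSO and 292, 315 and 320 CPM with Rapalink-1. It rose by 1.11 (SE 0.055, adjusted p = 3.8e-20). Pax6 rose from 38.7, 40.7 and 43.6 to 80.4, 87.4 and 85.2 CPM, a change of 1.04 (SE 0.075, adjusted p = 4.9e-15). Neither gene's groups overlapped. Meis1 rose by 1.11, Zic2 by 0.69, Zic1 by 0.67 and Neurod1 by 0.59. Of 14 hedgehog pathway genes listed 6 were tested, and 5 of those rose, beside 25.7% of all genes. The receptor gene Ptch1 led at 1.15, and Smo did not pass the test at 0.11. The Notch list had 5 of 15 higher and 5 lower, beside 25.7% and 28.0% of all genes (7 and 0 under library totals). Its ligand gene Dll1 rose by 0.89. Neural progenitor markers had 2 higher and 2 lower of 8, close to the shares of all genes (2 and 1 under library totals).

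The same genes were set beside rapamycin, given at a dose 10 times lower in nM terms, so doses were not matched. Footprint columns of DMSO and Rapalink-1 carry the tag RP-B and those of rapamycin the tag RP, whose meaning the labels do not give. A difference marked by these tags cannot be told apart from the drug in any count or difference between Rapalink-1 and rapamycin given here. The same limit holds for every change from DMSO to rapamycin, also where the drugs gave similar values. Both drug comparisons use the same DMSO libraries. In the direct contrast of the fit, 2870 genes (25.4%) were higher and 3119 (27.6%) lower with Rapalink-1 than with rapamycin. All 48 large and 34 small subunit genes were lower, with rapamycin-to-DMSO medians of -0.40 and -0.39. Eef1a1 had 10813, 10789 and 10906 CPM with rapamycin, a change of -0.61, and was lower by 2.95 with Rapalink-1 than with rapamycin (SE 0.045, adjusted p = 5.7e-37). Odc1 had 396, 403 and 399 CPM with rapamycin, a change of -0.07 (adjusted p = 0.36), and differed between the drugs by -2.45. Eif4ebp1 changed by 0.18 with rapamycin (adjusted p = 0.078) and differed between the drugs by -1.70.

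Among rises Dync1h1 (chr12:110601395-110666944, GRCm38) had 100, 99.5 and 82.9 CPM in DMSO, 309, 321 and 311 with Rapalink-1 and 93.9, 94.6 and 88.4 with rapamycin. It differed between the drugs by 1.77 (SE 0.063, adjusted p = 4.8e-25). Flcn and Fnip1 differed by 1.08 and 1.1, and Txnip by 2.28. The splicing genes Son and Prpf8 were also among the smallest p of the direct contrast, at 0.93 and 0.88. For other genes the drugs gave similar values: Ubald2 changed by 1.56 with Rapalink-1 and 1.73 with rapamycin, Zswim4 by 1.5 and 1.39, Mycl by 1.24 and 1.35, Mxi1 by 0.80 and 0.69, and Hmgcs1 by -0.89 and -0.82. Rapalink-1 minus rapamycin was -0.17 (SE 0.080, adjusted p = 0.073) for Ubald2, 0.10 (SE 0.11, adjusted p = 0.46) for Zswim4 and -0.11 (SE 0.11, adjusted p = 0.42) for Mycl. It was 0.11 (SE 0.089, adjusted p = 0.32) for Mxi1 and -0.07 (SE 0.050, adjusted p = 0.22) for Hmgcs1. A p that misses the threshold does not show that the drugs act alike on these genes, which were chosen after their values were seen.

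**Figure D5:**
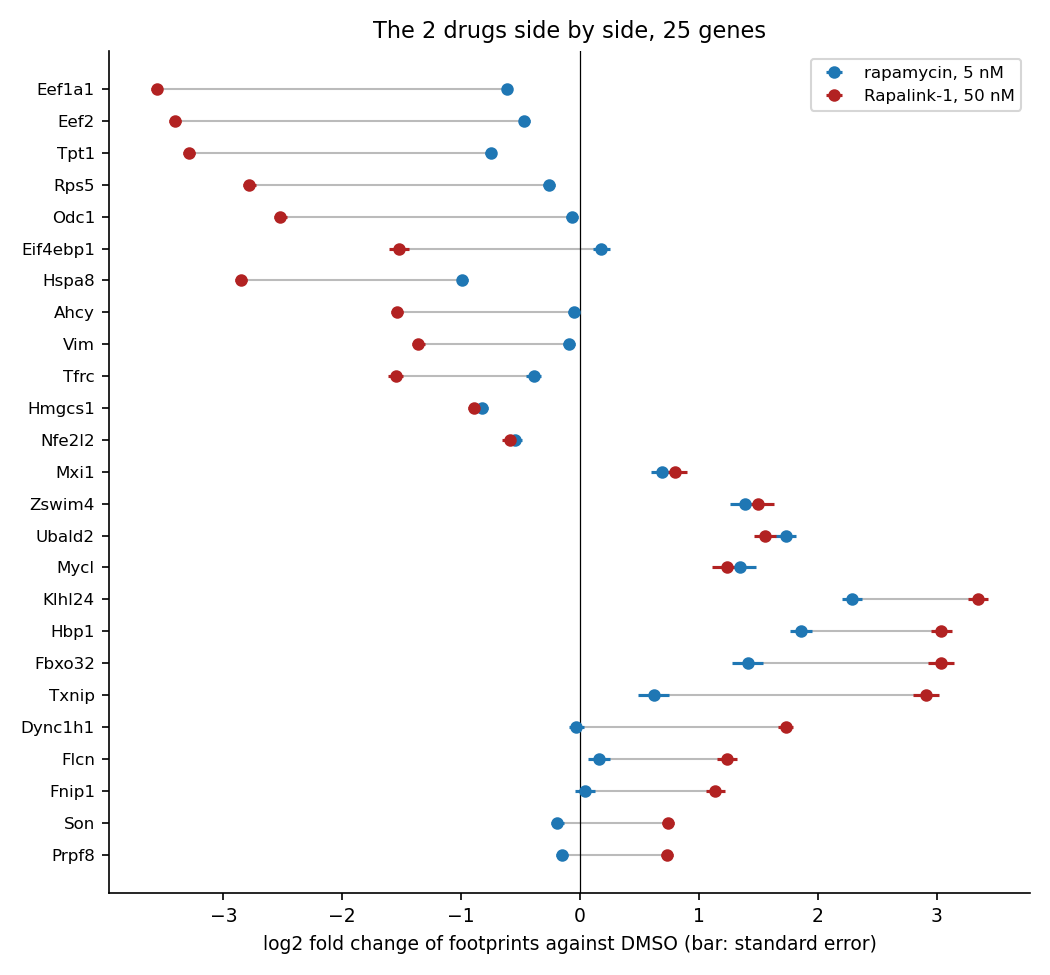
Log2 fold change of footprints against DMSO with its standard error for Rapalink-1 (50 nM, red) and rapamycin (5 nM, blue) in genes chosen after their values were seen; both use the same DMSO libraries. Odc1 lies at -2.52 and -0.07 and Dync1h1 at 1.73 and -0.03, while Mycl lies at 1.24 and 1.35. The rapamycin columns carry another tag than those of DMSO and Rapalink-1, and a difference it marks cannot be told apart from the drug.

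The authors' deposited table of the same comparison held a row for 9852 of the genes, with 2819 higher and 3144 lower at an adjusted p under 0.05. Of 5741 genes called here with a row in the authors' deposited table, 5681 had the same sign and an adjusted p under 0.05 there.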

How the data were processed

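Ribosome footprint and total RNA libraries were made from GTML cells with the ARTseq kit, per the labels, and only the 9 footprint libraries were fitted here. The count values are whole-number reads per transcript without normalization, as deposited by the authors. In the authors' deposited table, the signal column holds means of normalized counts, the log2 columns hold fold changes and their errors, the score column holds test statistics, and the p-value columns hold raw and adjusted p, per the file headers. The genome build was GRCm38 (mm10), per the submitters' processing notes; which aligner, counter and annotation were used is not given in the sources used here.

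Of 27382 transcript rows, those with equal counts or of 1 gene were merged to 15307 features, of which 9787 had a symbol. Features without one held 1.83 to 2.15% of reads and stayed in under their transcript name. Genes passing filterByExpr (minimum count 10, minimum total 15) were fitted with edgeR 4.0.16 (R 4.3.3; TMM factors, robust quasi-likelihood, 6 residual degrees of freedom), with Benjamini-Hochberg adjustment over all 11281 genes. The biological coefficient of variation was 6.38%, and standard errors were derived from each log2 change and its test statistic. The method was tested on simulated data in which few genes changed, so that test cannot judge the choice of scaling. Alternatives, DESeq2 1.42.0 among them, are in the closing section. Replicate libraries differed by more than sampling noise (chi-square per degree of freedom 2.97 to 9.5).

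Members and gene lists were chosen with earlier results of these data known. Which genes could be named was set by rule. The rule took the 15 largest rises and 15 largest falls with a mean log2 CPM of at least 4 and no overlap. It also took every member of short lists and the 6 smallest p of longer ones. The 5 smallest p in each direction against rapamycin and a fixed set of mTOR and MYC genes were added. Rps27l, Rps6, Rpl28, Eif3a, Ndufs1, Gclc, Stmn1, Ccng2, Eif5, Eif1a, Lars and members named beside counts of 5 or fewer were chosen after their values were seen. Sequences are from RefSeq, build GRCm38.p6.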

Additional observations from a re-analysis of the deposited data

How the results depend on the processing

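Scaling by library totals changed the counts most: 5400 genes were higher and 1587 lower than DMSO, 4979 were higher and 1830 lower than rapamycin, and 0 FoxO targets were lower. By construction this scaling shifts every log2 change up. It turned Rps27l to 0.06, Eif3a to 0.08, Mtor to 0.01, Larp1 to 0.00, Cct3 to 0.17 and Acta2 to 0.00. Leaving out single libraries gave 2597 to 2675 genes higher and 2892 to 3021 lower than DMSO, and 2530 to 2641 higher and 2846 to 2923 lower than rapamycin. It gave 48 to 48 large subunit genes, 34 to 34 small subunit genes and 15 to 15 other TOP genes lower, and 0 to 0 of each higher. FoxO targets were 12 to 13 higher and 1 to 3 lower, with 1 lower without DMSO replicate 1 or Rapalink-1 replicate 3, where the cause was not tested. Of 228 genes, 205 kept direction and side of the threshold in all 15 alternatives.

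With the replicate number as a block, 2927 genes were higher and 3211 lower than DMSO, and 2902 and 3174 than rapamycin. The labels do not say that a number marks a shared culture, day or batch, and the values do not settle it: same-numbered DMSO and Rapalink-1 libraries had correlated deviations of 0.23, 0.05 and 0.16, and not every library correlated best with its own number, as Rapalink-1 replicate 2 had 0.06 with DMSO replicate 3. The block called 6 mitochondrial DNA genes higher. Low counts limit what can be said of genes near the filter, such as Bbc3.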
